A study of Homo sapiens with 8 samples.

Results

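The genes described here make, sense and destroy the cyclic nucleotides cGMP and cAMP. They are 10 genes, measured by 16 of the 42405 non-control probes of the array, and 9 of them are among the 28850 genes tested. They comprise the soluble guanylate cyclase subunits GUCY1A1, GUCY1A2 and GUCY1B1 (the first and last carry the older names GUCY1A3 and GUCY1B3), the cGMP-dependent protein kinase PRKG1, and the phosphodiesterases PDE4A, PDE4B, PDE4D, PDE5A, PDE8A and PDE9A. Probes were assigned to these genes by the RefSeq accession that the array files give for each probe. The list was drawn up with the measured difference between siGATA2 and siControl arrays in view, so the values of the 10 genes in that contrast are given as a description, without a test.

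LNCaP cells, a line from a lymph node metastasis of a human prostate cancer, were kept in RPMI-1640 with 10% fetal bovine serum. They were transfected with 30 nM of an siRNA against the transcription factor GATA2 (siGATA2) or of a scrambled siRNA (siControl), and total RNA was taken 72 h later. Each group had 4 one-colour Agilent arrays, described by the submitters as biological replicates. The transfection was transient, it was made in a single cell line, and the study's methods name 1 siRNA against GATA2.

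Soluble guanylate cyclase is a heme-containing heterodimer of an alpha and a beta subunit that binds nitric oxide and then turns GTP into cGMP. GUCY1A1 and GUCY1A2 encode alternative alpha subunits, and GUCY1B1 encodes the beta subunit that both use. PRKG1 is the main kinase that cGMP activates in smooth muscle and other tissues. Phosphodiesterases end the signal by hydrolysing the cyclic nucleotide. The PDE4 enzymes and PDE8A are specific for cAMP, whereas PDE5A and PDE9A are specific for cGMP. PDE4D has many transcripts from separate start sites, and PDE5A is the target of sildenafil.

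The differences were not shared evenly among these genes. GUCY1A2, the alternative alpha subunit, stood above background in every siControl culture and in none of the 4 cultures labelled siGATA2, a difference of at least 12.1-fold against the stricter of the floors used for a probe in the background. PDE4D and PDE4A, both cAMP-specific, were lower on the arrays labelled siGATA2, with log2 differences of -2.36 and -1.64. GUCY1A1 and GUCY1B1, the subunits of the common cyclase dimer, differed by -0.22 and -0.28 with overlapping groups. PDE8A and PDE9A also had overlapping groups, and PRKG1, PDE4B and PDE5A were near background on part of the arrays.

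The promoters of the genes that differed most, and of GUCY1B1 as a subunit whose groups overlapped, are shown because the perturbed factor binds DNA. They are RefSeq sequences of assembly GRCh38.p14, 5′ to 3′ on the gene's strand, from 250 bases before an annotated transcription start to 50 bases after it. Capitals mark letters of the searched motifs. These were the GATA motif spelled as AGATAA, or as TGATAA, or as AGATAG, or as TGATAG, the cAMP response element TGACGTCA and the E-box CACGTG, each on either strand, and the matches printed here do not overlap one another. The promoters are those of GUCY1A2 (chr11:107018427-107018726, minus strand), GUCY1B1 (chr4:155758771-155759070, plus strand), PDE4A (the first of its 5 promoters, chr19:10416523-10416822, plus strand) and PDE4D (2 of its 8 promoters, chr5:59356921-59357220 and chr5:60372614-60372913, minus strand).
GUCY1A2: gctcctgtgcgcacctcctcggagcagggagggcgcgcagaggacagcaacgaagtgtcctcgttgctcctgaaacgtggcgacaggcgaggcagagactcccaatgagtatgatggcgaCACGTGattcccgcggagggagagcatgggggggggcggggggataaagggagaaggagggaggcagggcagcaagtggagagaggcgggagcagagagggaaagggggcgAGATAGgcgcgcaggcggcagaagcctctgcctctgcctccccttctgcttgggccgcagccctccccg
GUCY1B1: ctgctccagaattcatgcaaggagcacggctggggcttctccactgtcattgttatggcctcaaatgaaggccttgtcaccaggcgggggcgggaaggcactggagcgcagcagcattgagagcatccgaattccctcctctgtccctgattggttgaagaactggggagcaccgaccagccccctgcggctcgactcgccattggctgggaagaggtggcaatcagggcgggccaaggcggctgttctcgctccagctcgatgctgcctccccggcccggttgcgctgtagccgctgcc
PDE4A: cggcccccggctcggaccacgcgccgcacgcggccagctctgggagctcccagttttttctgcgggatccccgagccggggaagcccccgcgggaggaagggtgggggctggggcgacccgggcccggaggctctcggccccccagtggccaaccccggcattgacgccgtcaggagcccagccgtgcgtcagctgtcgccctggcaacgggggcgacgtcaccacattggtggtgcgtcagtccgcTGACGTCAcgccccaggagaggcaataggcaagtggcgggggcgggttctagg
PDE4D, promoter 5: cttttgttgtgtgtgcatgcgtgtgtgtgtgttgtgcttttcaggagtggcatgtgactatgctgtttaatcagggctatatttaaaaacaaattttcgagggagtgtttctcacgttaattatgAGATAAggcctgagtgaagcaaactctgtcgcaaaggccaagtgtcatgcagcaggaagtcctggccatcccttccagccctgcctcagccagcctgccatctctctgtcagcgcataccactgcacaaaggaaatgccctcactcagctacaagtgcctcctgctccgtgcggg
PDE4D, promoter 8: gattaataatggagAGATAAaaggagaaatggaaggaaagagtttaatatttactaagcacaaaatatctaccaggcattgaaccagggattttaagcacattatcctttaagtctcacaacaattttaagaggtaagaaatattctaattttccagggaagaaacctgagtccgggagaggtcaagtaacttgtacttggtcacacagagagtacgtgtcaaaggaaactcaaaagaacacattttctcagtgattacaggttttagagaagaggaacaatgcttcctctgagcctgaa

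In the GUCY1A2 promoter the motif AGATAG begins 19 bases before the start and CACGTG begins 130 bases before it. None of the searched motifs occurs in the GUCY1B1 window, which shows only that these letters are not in it. The first PDE4A promoter holds TGACGTCA, beginning 3 bases before the start, and none of its 5 promoters holds a GATA motif. In PDE4D, AGATAA begins 125 bases before the start of promoter 5 and 236 bases before that of promoter 8. The other promoters of PDE4A and PDE4D hold none of the searched motifs, so the windows printed for these genes are those with a match and are not typical of them.

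The RefSeq table held 31 promoters for 9 of the 10 genes, with PDE9A unmatched. A GATA motif was in 5 of the 31 (16.1%), as against 25.0% of all 35116 promoters of the table. The other 2 of these 5 belong to PDE4B. A cAMP response element was in 1 of 31 (3.23%, against 1.85% of all), and an E-box in 2 of 31 (6.45%, against 7.26% of all), the second being a PDE8A promoter with CACGTG beginning 187 bases before the start. A match is a description of the letters and not of binding.

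All values below are log2 processed signals, quantile-normalized over the 8 arrays, and differences run from siControl to siGATA2 (negative where siGATA2 was lower), with the standard error of the fit. "Well above background" is the scanner software's own call for a spot. The siControl arrays 1 and 3 had the fewest such probes, 28501 and 24331, against 34022 to 36976 on the other 6, and the widest spread of negative-control spots, 4.49 and 7.26 signal units against 1.78 to 2.40. On siControl array 1 the E1A spike-in probes were also low, at 11.13 against 13.45 to 13.83 on the other arrays before normalization. The 9 markers of LNCaP cells were well above background on every array (4 fell and 1 rose), with a summed log2 level of 18.47 to 19.04 on siGATA2 and 18.89 to 19.21 on siControl arrays. Of 20 markers of basal, smooth muscle, fibroblast, endothelial and white blood cells, 15 were tested and 6 were well above background on every array. Of the 15, 1 fell (VWF, -0.96) and 2 rose (PTPRC, 0.87, and CD68, 2.00). Their summed level was 12.07 to 12.17 on siGATA2 and 12.07 to 12.18 on siControl arrays. In such a sum the brightest markers weigh most and opposite changes can cancel. All arrays are of a single cultured line, LNCaP, and the source of the signal at these marker probes was not tested.

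GATA2 itself was not lower on the arrays labelled siGATA2. Its probe read 12.61, 12.54, 11.57 and 11.40 on siGATA2 arrays 1 to 4 and 11.74, 11.28, 11.10 and 11.29 on siControl arrays 1 to 4. The difference was 0.68 (SE 0.312, limma adjusted p = 0.154), and it rested on siGATA2 arrays 1 and 2, being 0.14 (adjusted p = 0.679) without them and 1.22 (adjusted p = 0.00753) without arrays 3 and 4. Both of those fits kept all 4 siControl arrays, of which array 1 read highest. The transcript measured by this probe was thus no check of the labels, and GATA2 protein was not analysed here. Every direction below is that of arrays labelled siGATA2 against arrays labelled siControl.

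GUCY1A2 had the largest difference of the 10 genes. Its probe A_23_P350001 read 2.71, 2.40, 2.76 and 2.59 on the arrays labelled siGATA2 and 6.13, 7.08, 7.62 and 7.01 on the siControl arrays. The nearest arrays of the groups were 3.38 apart, and siControl array 1 was the lowest of its group. The means were 2.61 ± 0.158 and 6.96 ± 0.615 (SD, n = 4 each), a measured difference of -4.35 (SE 0.292).

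Because no siGATA2 spot of GUCY1A2 was well above background, its fall has only a lower bound. Set against the lowest signal among probes well above background on each siGATA2 array, or the probe's own value where that was higher, the siControl mean was at least 20.2-fold higher. That floor lies close to the probe's own signal, and with a stricter floor, the 95th percentile of the probes that were not well above background, the siControl mean was at least 12.1-fold higher. Under normexp background correction with an offset of 50, which compresses dim probes by construction, the difference was -1.44. In a whole culture, fewer cells that make a transcript and less of it per cell cannot be told apart.

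**Figure D1:**
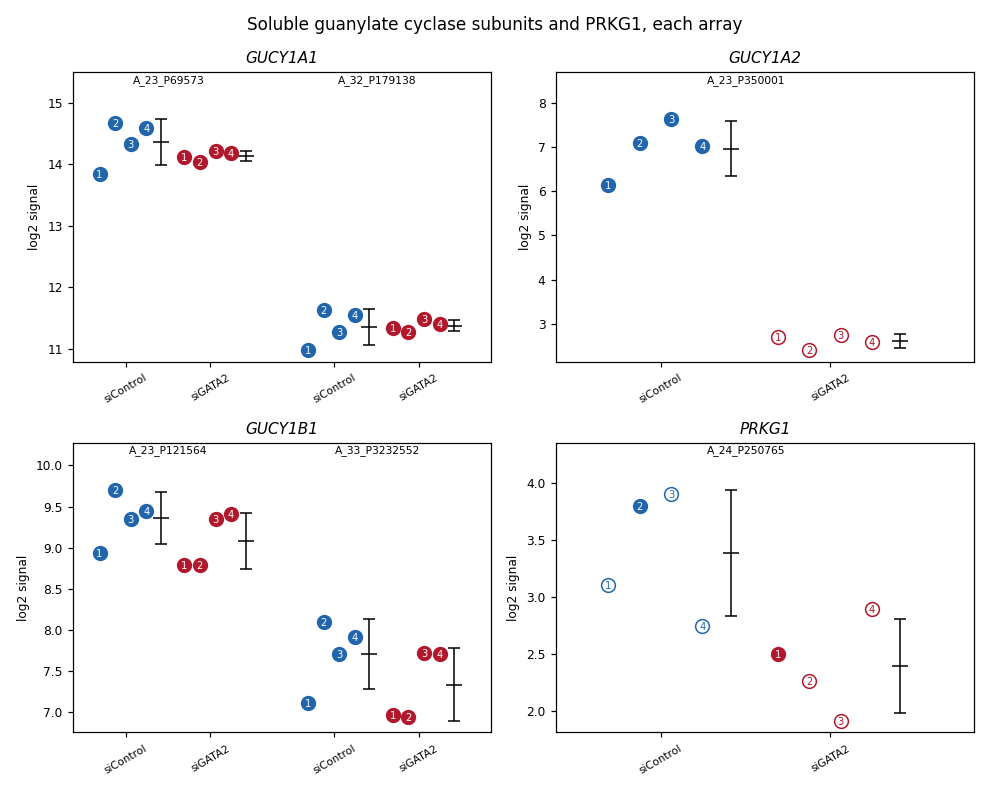
Log2 normalized signal (vertical axes, each with its own range) of every probe of the 3 soluble guanylate cyclase genes and PRKG1 on the 4 siControl (blue) and 4 siGATA2 (red) arrays, numbered by replicate. Open circles were not well above background, and bars to the right of the points give the mean ± SD. GUCY1A2 separates the groups with all siGATA2 circles open, between 2.40 and 2.76, whereas both probes of GUCY1A1 and of GUCY1B1 overlap.

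GUCY1A1, the alpha subunit of the common dimer, did not separate the groups at either of its probes. Probe A_23_P69573 read 14.11, 14.03, 14.21 and 14.19 on siGATA2 arrays and 13.85, 14.67, 14.33 and 14.59 on siControl arrays, with a difference of -0.22 (SE 0.188). Probe A_32_P179138 read 11.34, 11.27, 11.47 and 11.40 against 10.97, 11.63, 11.27 and 11.55, with a difference of 0.018 (SE 0.161). The siGATA2 arrays lay inside the siControl range at both probes, and siControl array 1 was the lowest of the 8. Every GUCY1A1 spot was well above background.

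GUCY1B1, the beta subunit, lies next to GUCY1A1 on chromosome 4, with 0 annotated genes between them. Its probe A_23_P121564 read 8.79, 8.80, 9.35 and 9.41 on siGATA2 arrays and 8.94, 9.70, 9.35 and 9.45 on siControl arrays, a difference of -0.28 (SE 0.222). Its probe A_33_P3232552 read 6.97, 6.94, 7.72 and 7.71 against 7.11, 8.10, 7.71 and 7.91, a difference of -0.37 (SE 0.283). At both probes siGATA2 arrays 1 and 2 were low and arrays 3 and 4 were within the siControl range, so the difference was smaller than the distance between the siGATA2 arrays themselves.

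PRKG1, the kinase downstream of cGMP, was near background throughout. Probe A_24_P250765 read 2.50, 2.26, 1.91 and 2.90 on siGATA2 arrays and 3.10, 3.79, 3.90 and 2.74 on siControl arrays, and was well above background on 1 of 4 arrays in each group. The groups overlapped, the difference was -0.99 (SE 0.316), and the mean fell under the filter of 3, so PRKG1 was not among the genes tested. This probe gives no measured level of PRKG1 on 6 of the 8 arrays.

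PDE4D, a cAMP-specific enzyme, was lower on the arrays labelled siGATA2 at all 3 of its probes. The brightest, A_33_P3389649, read 7.23, 6.95, 5.86 and 5.41 on siGATA2 arrays and 9.61, 8.30, 8.45 and 8.54 on siControl arrays, a difference of -2.36 (SE 0.471). Probe A_33_P3389653, designed against another transcript, read 5.81, 5.38, 5.51 and 5.63 against 7.14, 7.80, 7.60 and 7.80, a difference of -2.00 (SE 0.181). The groups did not overlap at either probe, and siGATA2 arrays 1 and 2 lay above arrays 3 and 4 at the first of them but not at the second.

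The remaining PDE4D probe, A_33_P3389658, was dim. It read 2.93, 2.71, 3.55 and 3.15 on siGATA2 arrays, where it was never well above background, and 4.88, 5.42, 4.52 and 5.53 on siControl arrays, where it was on 2 of 4. The measured difference was -2.00 (SE 0.274), and with the stricter floor on the siGATA2 side the siControl mean, which includes the 2 arrays in the background, was 3.29-fold higher. The groups did not overlap at this probe either.

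PDE4A, another cAMP-specific enzyme, was lower at its 2 bright probes. Probe A_24_P322474 read 9.45, 9.26, 8.86 and 8.96 on siGATA2 arrays and 10.89, 10.80, 10.69 and 10.70 on siControl arrays, a difference of -1.64 (SE 0.153). Probe A_33_P3395876 read 8.68, 8.60, 8.86 and 8.82 against 9.87, 9.85, 10.06 and 9.92, a difference of -1.19 (SE 0.109). The siControl arrays lay close together at both probes, and the groups stood apart. The dim probe A_23_P208334 read 3.96, 4.08, 4.57 and 4.26 against 3.94, 4.87, 5.29 and 4.90, with overlapping groups and a difference of -0.54 (SE 0.290), and siControl arrays 1 and 3 were not well above background at it.

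PDE4B, the remaining PDE4 gene of the list, was unsettled by 1 array. Its probe A_23_P74278 read 3.09, 3.49, 2.98 and 3.14 on siGATA2 arrays and 2.28, 4.92, 5.55 and 4.88 on siControl arrays, and was well above background on 2 of 4 arrays in each group. siControl arrays 2, 3 and 4 were higher than all siGATA2 arrays and siControl array 1 was lower than all of them, which gave -1.23 (SE 0.649). Without siControl array 1 the difference was -1.94, past both thresholds of the fit, and under normexp correction it was -0.39.

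PDE8A, a cAMP-specific enzyme of high affinity, read 10.03, 10.23, 10.57 and 10.59 on siGATA2 arrays and 11.01, 10.63, 10.51 and 10.53 on siControl arrays. The difference was -0.31 (SE 0.180). As with GUCY1B1, siGATA2 arrays 1 and 2 were the low pair and arrays 3 and 4 were within the siControl range.

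Of the cGMP-specific enzymes, PDE9A did not separate the groups. Its probe read 11.83, 11.73, 11.64 and 11.65 on siGATA2 arrays and 11.43, 11.70, 11.84 and 11.84 on siControl arrays, a difference of 0.008 (SE 0.127). All of the siGATA2 arrays lay within the siControl range.

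PDE5A was the only one of the 10 genes with a positive difference over 0.1 at its brightest probe. It read 4.58, 4.55, 4.46 and 3.95 on siGATA2 arrays and 4.26, 4.03, 1.81 and 3.86 on siControl arrays, a difference of 0.90 (SE 0.520). The spot was well above background on all siGATA2 arrays but, among the siControl arrays, only on arrays 2 and 4. On siControl array 3, which read 1.81, the log2 signal before normalization was 4.03, within the 3.44 to 4.23 of the other siControl arrays. Without that array the difference was 0.34, and under scaling to the E1A spike-in probes it was 0.04.

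**Figure D2:**
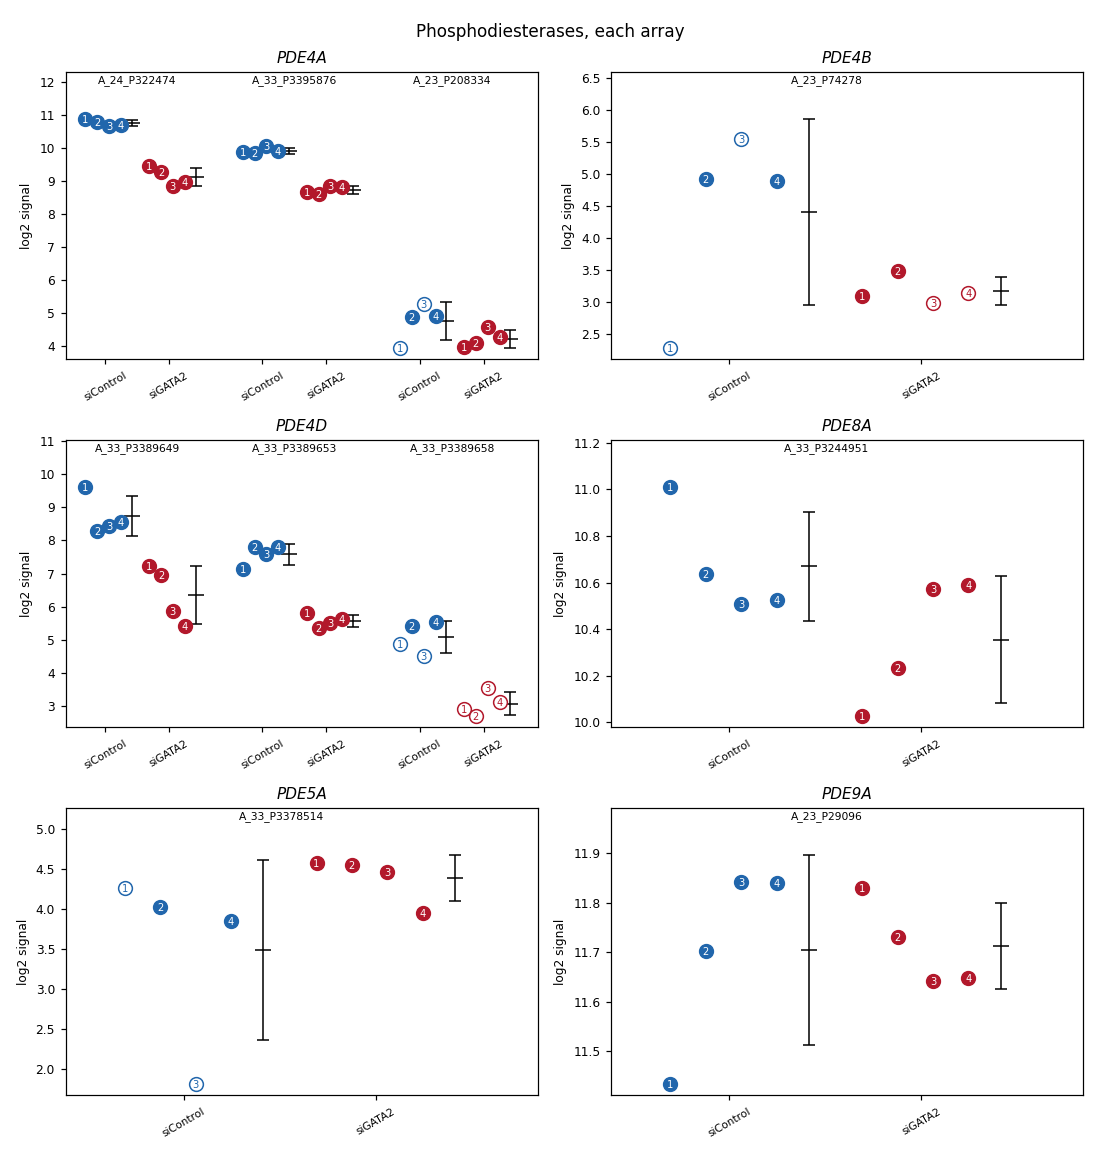
Log2 normalized signal (vertical axes, each with its own range) of every probe of the 6 phosphodiesterase genes on the 4 siControl (blue) and 4 siGATA2 (red) arrays, numbered by replicate. Open circles were not well above background, and bars to the right of the points give the mean ± SD. The groups stand apart at all 3 PDE4D probes and at 2 of 3 PDE4A probes, and single siControl arrays lie far from the rest for PDE4B (array 1, 2.28) and PDE5A (array 3, 1.81).

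Over the list, 3 of the 9 tested genes (GUCY1A2, PDE4A and PDE4D) were past an adjusted p of 0.05 and a 2-fold difference in the lower direction and 0 in the higher direction, where 7.13% and 4.52% of all genes were. As the list was chosen on this contrast, nothing is read from that count. The brightest probes of the same 3 genes had groups that did not overlap, with siGATA2 below, against 16.5% of all genes, and 0 had siGATA2 above, against 16.2%. The median difference was -0.31 over the 9 genes and 0.09 over all genes tested. Next to the 2-fold threshold, of 1 on the log2 scale, lay PDE4B outside it only by its adjusted p, with -1.23, and PDE4A as the nearest gene inside it, with -1.64.

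**Figure D3:**
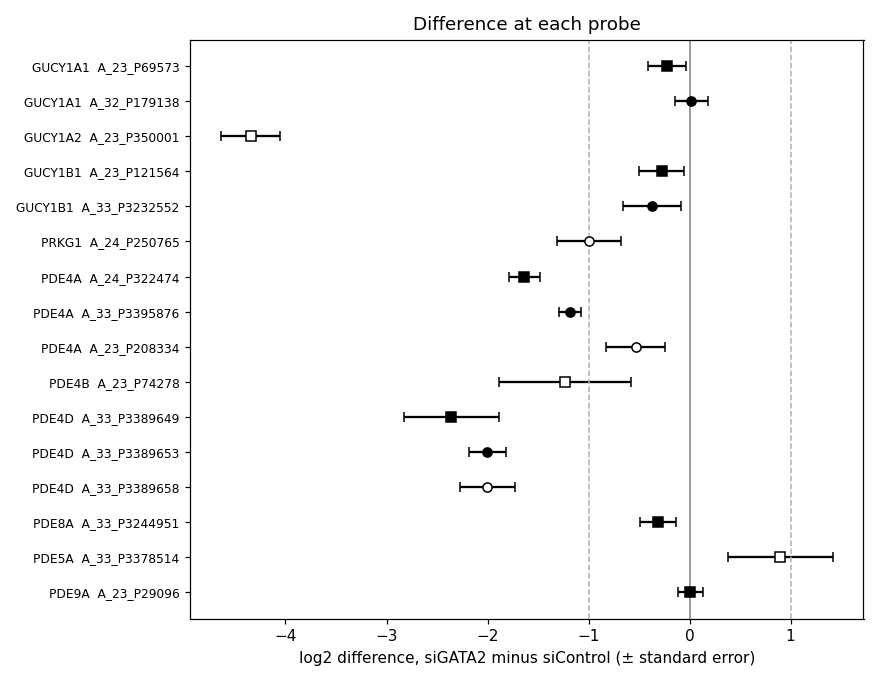
Difference in log2 normalized signal, siGATA2 minus siControl (horizontal axis, bars are standard errors), at each of the 16 probes. Squares are the brightest tested probe of a gene, open symbols were not well above background on at least 1 array, and dashed lines mark 2-fold. The differences run from -4.35 for GUCY1A2 to 0.90 for PDE5A, and the probes of 1 gene lie on the same side of 0 for GUCY1B1, PDE4A and PDE4D.

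The differences of GUCY1A2, PDE4A and PDE4D were past both thresholds under all 22 other ways of processing the arrays, over ranges of -5.09 to -1.44, -2.21 to -1.12 and -3.09 to -1.63. PDE4B was past them under 5 of 21, and GUCY1A1, GUCY1B1, PDE5A, PDE8A and PDE9A under 0 of 22. The alternatives reuse the same arrays and the contrast on which the list was chosen, so these counts describe the processing and test nothing. Scaling to the E1A spike-in probes moves the difference of every gene by the same amount relative to 75th percentile scaling, and the spike-in signal was low on siControl array 1 alone. Used instead of quantile normalization, it moved the median of all genes from 0.09 to -0.43, and with it the share of 2-fold calls that were lower from 61.2% to 93.1%. With that scaling GUCY1A2, PDE4A and PDE4D differed by -5.09, -2.21 and -2.77.

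The genes whose pattern over the 8 arrays was most like that of GUCY1A2 were NUDT2, EIF3B and MANEAL, with Pearson correlations of 0.999, 0.999 and 0.998 over 17858 genes with a symbol, and differences of -1.03, -0.98 and -0.89. For PDE5A they were DTX3, FBXL13 and ANKK1, with correlations of 0.993, 0.988 and 0.988. These coefficients describe 8 points that share the group contrast or the same low siControl array, and say nothing of shared control.

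The other genes of the cyclic nucleotide pathways were examined as 6 lists by role, 99 genes in all, of which 97 were on the array and 87 were tested. In the fit across all genes 18 fell, 17 rose and 52 did not pass an adjusted p of 0.05. Those are 20.7% and 19.5% of the 87, against 14.2% and 12.3% of all genes, and 11 and 5 of them changed by at least 2-fold, as did 7.13% and 4.52% of all genes. Their median difference was -0.02. Groups did not overlap for 20 genes with siGATA2 below and 16 with siGATA2 above, against 16.5% and 16.2% of all genes.

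Among the other genes of cGMP synthesis, 1 of 14 fell and 2 rose. The clearance receptor NPR3 fell by 1.02 (SE 0.314, adjusted p = 0.0468). GUCA1B, a calcium sensor for the retinal membrane cyclases, rose by 1.62 (SE 0.248, adjusted p = 0.00208) and the natriuretic peptide NPPC by 0.77 (SE 0.219, adjusted p = 0.0345). The NPPC call was lost under 11 of 22 alternatives and the NPR3 call under 15. GUCA1B cleared the background call in 2 of 4 siControl cultures and rose by 0.73 as the mean over its probes and by 0.53 with normexp correction. NPR3 on siGATA2 arrays 1 and 2 was lower (5.13 and 5.01) than on arrays 3 and 4 (6.39 and 6.03). Neither the membrane cyclases nor the nitric oxide synthases on the list passed the test. NPR1 and NOS3 were well above background on all 4 arrays of each group. GUCY2C, GUCY2D and GUCY2F were so on 0 siControl arrays and NPR2, NOS1 and NOS2 on 2, so for these the lack of a call says little.

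Of 11 cGMP effectors and exporters, 2 fell and 2 rose. CNGB3, a subunit of the cone cGMP-gated channel, fell by 2.45 (SE 0.200, adjusted p = 9.9e-05), with 5.70 to 6.56 on siControl and 3.54 to 4.02 on siGATA2 arrays. VASP, an actin regulator that PRKG1 phosphorylates, fell by 0.73. CNGA4, which was well above background on only 2 siControl arrays, rose by 1.33, and PPP1R12A, the myosin phosphatase subunit, by 0.44 (-0.20 with scaling to the E1A spike-in probes). With normexp correction, which compresses dim probes, CNGB3 differed by -0.85 and CNGA4 by 0.40.

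Among 15 further phosphodiesterases, 2 fell and 1 rose. PDE3B, which cGMP inhibits and which hydrolyses cAMP, read 8.27, 8.16, 8.09 and 8.06 on siGATA2 arrays and 9.67, 9.70, 9.58 and 9.52 on siControl arrays, a log2 difference of -1.48 (SE 0.0984, adjusted p = 4.16e-05). PDE2A, which cGMP stimulates, read 7.16, 7.18, 6.99 and 6.68 against 8.37, 8.49, 8.26 and 8.48, a log2 difference of -1.40 (SE 0.138, adjusted p = 0.000233). PDE6G, the inhibitory subunit of the rod enzyme, read 10.28, 10.36, 11.07 and 10.95 against 9.14, 9.22, 9.10 and 9.21, a rise of 1.50 (SE 0.196, adjusted p = 0.000956). None of the 3 had overlapping groups, and all were well above background on every array.

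On the cAMP side, 3 of 10 genes of synthesis fell and 2 rose. The adenylyl cyclases ADCY1, ADCY7 and ADCY4 fell by 1.76, 0.69 and 0.64, and GNAS, the stimulatory G protein subunit, and ADCY9 rose by 0.90 and 0.46 (ADCY9 was -0.19 with scaling to the E1A probes). ADCY1 had the smallest adjusted p of these, 0.000291, whereas the ADCY7 call was lost under 16 of 22 alternatives and ADCY4 differed by -0.18 (adjusted p = 0.398) as the mean over its probes. Of 22 cAMP effectors 6 fell and 3 rose.

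The largest falls among the effectors were those of POPDC3, a membrane protein that binds cAMP, by 1.96 (SE 0.403, adjusted p = 0.00868), the protein kinase A inhibitor PKIB by 1.62, and the kinase PRKX by 1.17. HCN3, an ion channel, rose by 1.54, the regulatory kinase subunit PRKAR1A by 1.10, and the transcription factor CREB1 by 0.52 (-0.083 with scaling to the E1A probes). POPDC3 read lower on siGATA2 arrays 1 and 2 (4.52 and 4.95) than on arrays 3 and 4 (6.24 and 6.05), and its difference was -1.26 without the first pair and -2.67 without the second. PRKAR1A differed by 1.54 without siGATA2 arrays 1 and 2 and by 0.66 without arrays 3 and 4. HCN3 was the only one of these 6 whose groups overlapped, siControl array 1 reading 8.69 against 7.27 to 7.41 on the others and 8.55 to 9.88 on siGATA2 arrays.

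The kinase anchors, scaffolds that hold protein kinase A and phosphodiesterases in place, moved both ways, with 4 of 15 lower and 7 higher. PALM2AKAP2, AKAP7, AKAP1 and AKAP5 fell by 1.38, 1.00, 0.95 and 0.72. The largest rises were those of PDE4DIP, the PDE4D-interacting protein, by 0.99 (SE 0.169, adjusted p = 0.00355), of AKAP14 by 0.89 and of AKAP8L by 0.84. PALM2AKAP2 was well above background on 1 siGATA2 and 2 siControl arrays.

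**Figure D4:**
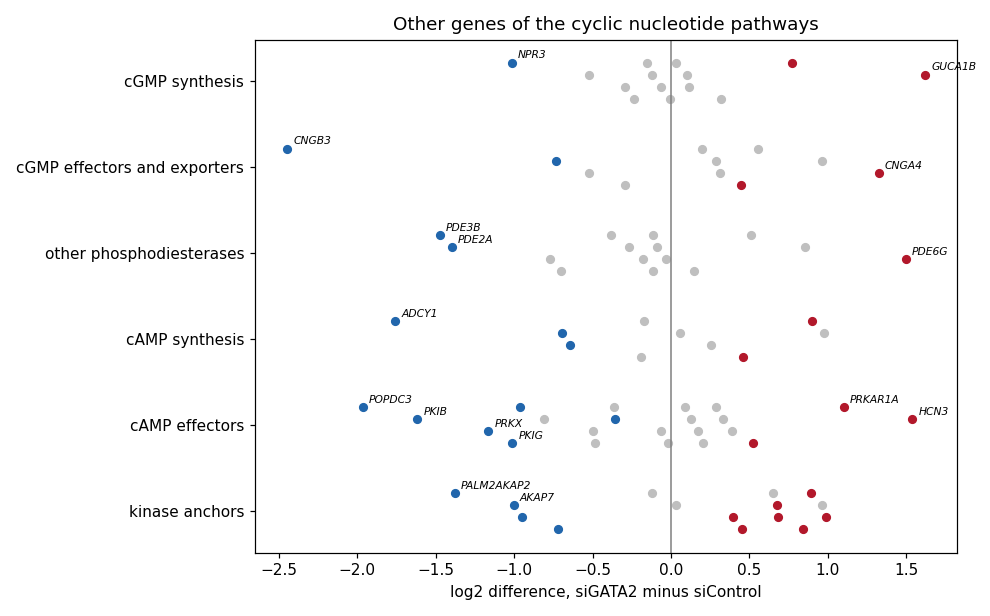
Difference in log2 normalized signal, siGATA2 minus siControl (horizontal axis), of the 87 tested genes of the 6 pathway lists (vertical axis; the height within a list only separates points). Blue genes fell and red genes rose at an adjusted p under 0.05, grey genes did not pass, and called genes past 2-fold are named. Falls and rises occur in every list, from -2.45 for CNGB3 to 1.62 for GUCA1B.

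Scaling to the E1A spike-in probes left 9 of these pathway genes lower and 0 higher in limma (20 and 1 at an unadjusted p under 0.05), whereas 75th percentile scaling gave 17 and 20. Relative to 75th percentile scaling, E1A scaling lowers every difference by the same amount, so smaller rises had to turn negative under it. PDE6G and GUCA1B stayed positive, at 0.94 and 1.08. Their standard errors were 0.506 and 0.516, against 0.196 and 0.248 with quantile normalization. Without siControl array 3, 9 rises passed the test, and without siGATA2 array 2 or siControl array 2, 10 did. Leaving out 1 array moved some differences little (0.82 to 0.97 for GNAS, 1.36 to 1.62 for PDE6G). It moved others more (0.56 to 0.89 for NPPC, 1.32 to 1.88 for HCN3, -0.79 to -0.48 for ADCY7, -1.27 to -0.81 for NPR3). Of the genes named above, ADCY1, CNGB3, PDE2A, PDE3B, PKIB, POPDC3 and PRKX fell under all 22 alternatives.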

How the data were processed

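The values rest on 8 one-colour arrays of LNCaP cells, 4 siGATA2 and 4 siControl, grouped and numbered by the sample labels. The authors deposited the fluorescence intensity of each spot from Agilent Feature Extraction 11.0.1.1, a background-corrected linear signal, and a matrix of log2 values that correlated with the signal of the same array at 0.985 or more and served as an alternative. The array files name another array design than the methods do, and every column used was mapped to a sample (0 were not).

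Outlier spots were dropped, log2 signals averaged per probe, and the arrays quantile-normalized (limma 3.58.1, R 4.3.3). A RefSeq table of GRCh38.p14 named 26364 of 42405 probes. The 1914 without annotation were removed, as were probes with a mean under 3. The brightest of a gene's probes stood for it in counts. Genes outside the list of 10 were tested with lmFit and eBayes and Benjamini-Hochberg adjustment over 28850 genes, at 0.05 and also with a 2-fold difference. The test was also run on simulated data with known changes. The 10 genes, the pathway and marker lists, and the tests were chosen with earlier results of these data known. Named genes are GATA2, the 10 genes, up to 3 falls and 3 rises in each pathway list, list counts of 5 or fewer in full, and the 3 most similar patterns. White blood cell and endothelial markers named beside the checks were chosen after their values were seen.

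The alternatives comprised 75th percentile scaling, scaling to 7 E1A probes, normexp with an offset of 50, the deposited log2 values, 2 other filters, the mean over probes, the methods' t-test, array weights, blocks by replicate number and slide row, and leaving out arrays. Leaving out siGATA2 arrays in pairs was added after seeing the data. Arrays have no read depth, and their number limits the precision.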

Additional observations from a re-analysis of the deposited data

Results flagged for a closer look

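Among 90 groups of 4 arrays examined for a single array far from the others, 6 stood out. That share is near the 1 in 20 that chance gives for independent groups. The groups share the same arrays and are not independent. All 6 were siControl arrays 1 or 3. For PDE5A, siControl array 3 read 1.81 against 3.86 to 4.26 on the others, a gap that took 0.835 of the range of its group. The same array was low for GUCA1B, at 3.44 against 4.43 to 4.50 (0.931 of the range), and for PALM2AKAP2, at 4.10 against 4.80 to 4.89 (0.891). siControl array 1 was high for ADCY1, at 11.57 against 11.20 to 11.27 (0.833), for HCN3, at 8.69 against 7.27 to 7.41 (0.900), and for AKAP1, at 14.87 against 14.35 to 14.42 (0.871). These 2 arrays had the fewest probes well above background, and the part of that in the 6 values was not tested. ADCY1, HCN3 and AKAP1 were, however, well above background on every array. For each of them siGATA2 arrays 1 and 2 also read above arrays 3 and 4. ADCY1 read 9.88 and 9.81 against 9.31 and 9.25, and HCN3 9.84 and 9.88 against 8.55 and 8.60. AKAP1 read 14.11 and 14.03 against 13.01 and 13.08. The cause was not tested.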

How the results depend on the processing

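Across the 22 alternatives the number of listed genes past both thresholds was 3 to 4 lower and 0 higher, the fourth being PDE4B, and leaving out 1 array gave 3 to 4 and 0. As the list was chosen on this contrast, these counts are a description only. Of the pathway genes, 9 fell and 0 rose with E1A scaling. With array weights 27 fell and 27 rose, and with slide row as a block 14 fell and 10 rose. Slide row 1 held siGATA2 arrays 1, 2 and 3 and siControl array 4. Row 2 held siGATA2 array 4 and siControl arrays 1, 2 and 3. Row thus followed the group on most arrays, and the block separates them only in part. Leaving out 1 array gave 14 to 17 falls and 9 to 18 rises, with fewest rises (9) without siControl array 3, 10 without siGATA2 array 2 or siControl array 2, and 11 without siGATA2 array 1, siGATA2 array 4 or siControl array 4. E1A scaling lowers every difference alike, and with it PPP1R12A, ADCY9 and CREB1 differed by -0.20, -0.19 and -0.083. Otherwise, where calls changed, the cause was not tested. The GATA2 difference ranged from 0.49 to 0.89 when 1 array was left out, and was past the threshold with array weights (1.10) and without siGATA2 arrays 3 and 4 (1.22), but was 0.14 without siGATA2 arrays 1 and 2 and 0.031 with E1A scaling. The lower share of all 2-fold calls was 44.4% with array weights and 51.0% without siGATA2 arrays 3 and 4. Same-numbered arrays correlated at 0.54, -0.31, 0.17 and 0.22 in their deviations from the group means, so the numbers were not taken to pair the samples. Other groupings of arrays that cross the labels were neither tested nor fitted. For HCN3, ADCY1 and AKAP1, siControl array 1 and siGATA2 arrays 1 and 2 read higher than the rest of their groups. For PDE8A siControl array 1 was high but siGATA2 arrays 1 and 2 were low. With a replicate block 3 listed genes were lower and 0 higher, 16 pathway genes fell and 12 rose, and GATA2 differed by 0.68. A slide block could not be fitted with 1 slide. Calls for NPR3, ADCY7, AKAP1 and PPP1R12A were lost under 13 to 16 alternatives each, and those for NPPC, ADCY9, HCN3 and CREB1 under 9 to 11.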
